A study of Mus musculus with 4 samples.

Results

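Peaks of open chromatin that were lower in mesenchymal stem cells (MSCs) of old mice than of young mice were selected on the deposited accessibility values themselves. Each sample's values were divided by their median over autosomal peaks, and an autosomal peak was taken where the smaller of the 2 Young values was at least 1.7 times the larger of the 2 Old values. The deposited mean of the Young samples also had to be at least 8, which left 88431 eligible peaks of 114745 on autosomes and 117282 in all. The rule took 1807 of these 88431, or 2.04%. Turned round, to peaks higher in old cells with an Old mean of at least 8, it took 1083 of 82209, or 1.32%. Without the fold, both Young values lay above both Old values in 25312 of the 88431 (28.6%), and both Old values lay above both Young values in 19495 of the 82209 (23.7%). These contrasts chose the peaks, so the values below describe them and no test was made on them.

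The assay was ATAC-seq, in which a transposase inserts sequencing adapters wherever DNA is accessible. There were 2 samples labelled Young, from mice aged 3 to 5 months, and 2 labelled Old, from mice aged 18 to 22 months, and all 4 were MSCs grown at 2% oxygen. The labels give no strain, sex, genotype or treatment, and they do not tell whether the samples of a group came from separate animals. The accompanying paper sorts bone MSCs from C57BL/6N mice by PDGFRα and Sca-1, without CD45 and TER-119, but describes no old mice. For the isolation and for aged MSCs it refers to an earlier report, which was not available here. How the old cells were isolated is therefore not known here. The paper's own mice were wild-type males of 3 to 5 months, an age that fits the Young samples. The marker genes of that sort could be looked up at promoters. At Pdgfra, the deposited scores summed over promoter peaks were 367 and 339 in Young 1 and Young 2, and 290 and 427 in Old 1 and Old 2. At Ly6a, which encodes Sca-1, they were 129 and 144 in the Young samples and 113 and 124 in the Old samples. These scores were not divided by the autosomal medians, so they do not by themselves show a difference between the groups. Those medians were 17.0 and 18.0 in Young 1 and Young 2, and 13.3 and 15.97 in Old 1 and Old 2. Ptprc, which encodes CD45, had no promoter peak.

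MSCs of bone give rise to osteoblasts, chondrocytes and adipocytes. Promoters are the sites where transcription starts, while enhancers lie within introns or between genes, at times far from the gene they act on, and are bound by combinations of transcription factors that differ among cell types. RUNX2 is required for osteoblast formation, C/EBP proteins act in adipocyte and osteoblast differentiation, and TEAD proteins carry the output of the Hippo pathway. An ATAC-seq peak shows that DNA was accessible, and it does not show which gene it serves.

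The values of the chosen peaks were modest in the Young samples and low in the Old ones. The deposited score of a chosen peak had a median of 14.9 in Young 1 and 17.0 in Young 2, against 4.90 in Old 1 and 5.22 in Old 2. Over all eligible peaks the medians were 24.8 and 26.9 in the Young samples and 19.2 and 23.6 in the Old samples. The chosen peaks were therefore below the usual eligible peak in every sample, and farthest below it in the Old ones. In each sample every value was a whole multiple of a fixed step, within 0.01 of a step, and the step was 0.354 in Young 1, 0.340 in Young 2, 0.350 in Old 1 and 0.307 in Old 2. If 1 step is read as 1 count, which the files do not state, the median chosen peak held 42 and 50 counts in the Young samples and 14 and 17 in the Old samples. On that reading the peaks of the table held 16259095 and 18493628 counts in Young 1 and Young 2, and 12527509 and 16364973 in Old 1 and Old 2. An Old value of at most 3 steps was found for 75 chosen peaks in Old 1 and for 42 in Old 2.

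The ratio of the smaller Young to the larger Old divided value, called the ratio from here on, had a median of 1.99 among the chosen peaks and reached 8.67. It was at least 2 in 881 of them, at least 3 in 230, at least 4 in 63 and at least 5 in 15. Within groups the divided values differed less. Young 2 over Young 1 had a median of 1.05, with the middle 50% between 0.937 and 1.21, and Old 2 over Old 1 had a median of 0.887, with the middle 50% between 0.683 and 1.10. Over all eligible peaks those medians were 1.02 and 1.02, so Old 2 was lower relative to Old 1 in the chosen peaks than elsewhere. Between groups, Young 1 over Old 1 had a median of 2.25 and Young 2 over Old 2 a median of 2.78. The peaks just inside the threshold lay at Casp12, with scores of 20.5 and 24.1 in the Young samples and 9.44 and 10.1 in the Old samples, at Ccdc83, with 20.5 and 22.1 against 9.44 and 6.14, and in an intron of Col19a1, with 41.1 and 41.1 against 17.8 and 14.1. Those just outside it lay near Vmn1r39, with 51.7 and 55.8 against 23.8 and 23.0, at Car10, with 32.2 and 36.7 against 13.6 and 17.8, and at Maats1, with 20.9 and 21.8 against 9.44 and 9.83. Peaks on the 2 sides of the threshold thus had nearly the same values.

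Most of the peaks lower in old cells lay away from promoters. Intergenic peaks made up 927 of them (51.3%, against 33.6% of eligible peaks) and intronic peaks 681 (37.7%, against 34.2%). Exons held 154 (8.52%, against 15.3%), and 45 (2.49%, against 16.9%) lay no more than 1 kb from a protein-coding start site, counted here as promoters. Read the other way, the rule took 3.12% of eligible intergenic peaks, 2.25% of intronic, 1.14% of exonic and 0.302% of promoter peaks. The rule turned round took 1.47%, 1.60%, 1.57% and 0.298% of the same classes, so the intergenic share was larger among peaks lower in old cells than among those higher in old cells, and the promoter share was small in both. Promoter peaks differ in level from the rest: the median Young mean of eligible promoter peaks was 97.8, and that of the 45 chosen ones 16.7.

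Distance to the nearest protein-coding start site gave the same picture in finer steps. Its median was 71713 bp for the chosen peaks and 23674 bp for eligible peaks, and for the peaks of the turned-round rule it was 26631 bp. The rule took 1.39% of eligible peaks between 1 and 10 kb from a start site, 1.72% between 10 and 50 kb, 2.41% between 50 and 100 kb and 4.01% between 100 and 500 kb. Beyond 500 kb it took 127 of 1303 peaks, or 9.75%, where 1303 passed the Young minimum and 989 the Old minimum. The turned-round rule took between 1.40% and 1.80% of peaks in each of these classes. The 2 rules use different minimums, so the shares were also read with a mean of all 4 samples of at least 8, chosen after seeing the data. Beyond 500 kb, 75 of 1160 peaks (6.47%) were then lower in old cells and 8 (0.690%) higher. Between 100 and 500 kb the shares were 2.90% and 1.02%, and between 1 and 10 kb 0.911% and 1.05%. Among the distance classes, the peaks farthest from a protein-coding start site thus had the largest share lower in old cells with either minimum. In this class, too, the median divided value of eligible peaks was lowest in Old 2, at 0.808, against 0.947 in Old 1, 1.13 in Young 2 and 1 in Young 1. Of the chosen peaks off a start site, 866 (48.6%) lay upstream of the nearest gene and 916 downstream, against 44.1% upstream among eligible peaks.

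The peaks lower in old cells were also narrower, weaker and richer in A and T than other eligible peaks, and the first 2 of these traits were shared by the peaks higher in old cells. Their median width was 800 bp, against 1500 bp, and for the turned-round rule it was 900 bp, against 1600 bp. Of peaks under 500 bp wide, 190 passed the Young minimum but 4 the Old minimum, so nearly all of them were eligible only through the Young samples. The share of them taken, 142 of 190, is therefore not read as a result. The 142 remain in the other counts and among the named peaks, such as those near Atp6v1b2, Pax8, Slc4a3, Chl1 and Tenm3, whose ratios share this limit. Without them the promoter share was 2.58% and the median distance to a start site 71859 bp. Among the 1665 chosen peaks of at least 500 bp the median width was again 800 bp, against 1500 bp. From 500 to under 1000 bp the rule took 5.58% and the turned-round rule 4.23%, and from 1000 to under 2000 bp they took 1.38% and 1.12%. In the next doubling they took 0.260% and 0.306%, and of the 8819 widest peaks 2 and 8. The median Young mean was 15.9 for chosen and 25.8 for eligible peaks, and the median Old mean of the peaks higher in old cells was 12.9, against 23.8 for the peaks that rule could take. The rule itself used these means, so level was also read with a minimum that uses both groups alike, a mean of all 4 samples of at least 8, chosen after seeing the data. It left 86043 peaks, of which 1216 met the fold downwards (1.41%) and 708 upwards (0.823%). From 8 to under 16 in this mean, 2.41% were lower in old cells and 1.73% higher, from 16 to under 32 1.62% and 0.814%, from 32 to under 64 0.862% and 0.194%, and in the next doubling 0.274% and 0.0441%. Weak peaks thus had the larger share in both directions. By width, the same minimum gave 3.79% and 1.48% from 500 to under 1000 bp, and 1.29% and 1.00% from 1000 to under 2000 bp. The part of counting error, which is wider for weak peaks, in these shares was not tested. Soft-masked repeats covered a median of 13.5% of a chosen peak and 14.6% of an eligible one.

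GC content went with the result, and so did the library Old 2. The median GC content was 42.1% in the chosen peaks and 46.3% in eligible peaks, and 47.2% in the peaks of the turned-round rule. The rule took 11.3% of eligible peaks under 35% GC, 5.75% from 35 to 40%, 2.81% from 40 to 45%, 1.24% from 45 to 50%, 0.563% from 50 to 55% and 0.149% from 55 to 60%. At 60% or more the share was higher again, with 12 of 1238 or 0.969%. The turned-round rule took 0.832% under 35%, 1.62% from 50 to 55% and 0.494% at 60% or more. Of AT-rich peaks many were eligible only through the Young samples, since under 35% GC 830 passed the Young minimum and 481 the Old minimum. With the common minimum on all 4 samples, 6.46% of the 650 peaks under 35% GC were lower in old cells and 0.308% higher, from 35 to 40% the shares were 3.88% and 0.506%, and from 50 to 55% they were 0.377% and 1.03%. The samples themselves differed along this axis. For eligible peaks under 35% GC the median divided value was 0.688 in Young 1, 0.896 in Young 2, 0.684 in Old 1 and 0.5 in Old 2, and for those from 50 to 55% it was 2.10, 1.96, 2.08 and 2.35. Young 1 and Old 1 had nearly the same medians in both classes, while Young 2 was higher and Old 2 lower in the AT-rich class, and the reverse held in the GC-rich class. The part that this difference among libraries has in the result was not tested. When each sample was instead divided by its median over peaks of like GC content, an alternative chosen after seeing the data, the rule took 1541 peaks, of which 1429 were among the 1807. It then took 7.71% of peaks under 35% GC and 0.866% of those from 50 to 55%, and 2.59% of intergenic peaks against 0.369% of promoter peaks. Location also varied within a narrow range of GC content: from 40 to 45%, the rule took 3.59% of intergenic, 2.49% of intronic, 1.84% of exonic and 1.34% of promoter peaks. The order was not the same in every class: from 35 to 40% the shares were 7.13%, 5.16%, 2.62% and 3.33%, and from 50 to 55% they were 0.874%, 0.936%, 0.362% and 0.196%.

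Chromosome 12 had the largest share of eligible peaks taken, 129 of 4018 or 3.21%, and chromosome 7 the smallest, 65 of 5176 or 1.26%. Chromosome 11, with 73 of 5496 or 1.33%, was also low. On chromosome 11 the median divided value of eligible peaks was 1.5 in Young 1, 1.49 in Young 2, 1.5 in Old 1 and 1.69 in Old 2, so the typical eligible peak of that chromosome was higher in Old 2. On chromosome 7 the medians were 1.68, 1.62, 1.66 and 1.65, with no such excess in Old 2, and on chromosome 12 they were 1.46, 1.47, 1.42 and 1.38, lowest in Old 2. The part of the library Old 2 in these shares was not tested.

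The 6 chosen peaks with the largest ratio were intergenic or intronic, and 5 of them were weak, with at most 5 steps in either Old sample. For this ranking an Old value under 3 steps was raised to 3 steps. The peak at chr16:78650101-78650700 lies 73393 bp upstream of D16Ertd472e, on the side of Chodl, which encodes the lectin chondrolectin. Its scores were 8.49 and 9.18 in Young 1 and Young 2, against 0.699 and 0.921 in Old 1 and Old 2. On the step reading, the Old samples held 2 and 3 counts, and the ratio of 8.67 had an exact 95% interval of 2.63 to 44.96, for counting error only. The peaks were chosen by this ratio, and these 6 were also ranked by it, so such intervals do not test it. The peak at chr3:155545701-155546400 lies between Lrriq3 and Negr1, a neuronal adhesion gene, with scores of 10.3 and 10.9 against 1.05 and 1.54. At chr8:69001201-69001400, between Lpl, which encodes lipoprotein lipase, and Slc18a1 and 283 bp from the start of the noncoding gene Gm33103, they were 8.49 and 8.84 against 1.05 and 0.614. At chr15:9879701-9880500, between Spef2, a gene of the sperm tail, and Prlr, the prolactin receptor gene, they were 8.14 and 8.84 against 1.05 and 1.23. In these 4 peaks the groups were far apart on a small number of counts.

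The peak at chr6:18601601-18602500 was the strongest of the 6, with a Young mean of 29.7 and with 9 and 12 steps in the Old samples. It lies 86780 bp upstream of Cttnbp2, which encodes a cortactin-binding protein of neuronal spines. Its scores were 24.4 and 35.02 in the Young samples and 3.15 and 3.69 in the Old samples, a ratio of 6.07 with an interval of 3.02 to 13.8. Of 5 eligible peaks nearest to Cttnbp2, 4 were chosen, a gene singled out after its values were seen. With division within GC classes 2 of these 4 were no longer taken, while the peak described here was. The remaining peak of the 6 lies in an intron of Pax8, a transcription factor gene of thyroid and kidney development, at chr2:24442201-24442500. Its scores were 11.3 and 10.2 in the Young samples and 1.05 and 1.54 in the Old samples.

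The 4 chosen peaks with the highest Young mean had ratios between 1.72 and 1.80. At chr15:9864001-9866600, in the same interval between Spef2 and Prlr, the scores were 215 and 253 in Young 1 and Young 2, and 97.6 and 75.6 in Old 1 and Old 2, a ratio of 1.72. Upstream of Lpin1, which encodes the phosphatidate phosphatase lipin-1 of fat synthesis, the peak at chr12:16618001-16621500 had scores of 198 and 198 against 81.8 and 100.4, a ratio of 1.75. The peak at chr13:85629101-85630600 lies in the gap between Rasa1, a Ras GTPase-activating protein gene, and Cox7c, with scores of 174 and 200 against 78.7 and 84.2. With over 200 counts in each Old sample on the step reading, counting error alone gave narrow intervals, from 1.49 to 1.99 at the first peak. These peaks were chosen by the ratio, so the intervals do not test it. The peaks near Spef2 and Rasa1 were no longer taken when samples were divided within GC classes, and the peak near Lpin1 was.

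Sfrp1, which encodes a secreted protein that binds Wnt ligands and restrains their signalling, held the widest chosen peak. It spans 8800 bp at chr8:23446101-23454900, over the 3′ end of the gene, and its scores were 194 and 208 in the Young samples and 84.3 and 80.8 in the Old samples. In its surroundings 4 of 8 eligible peaks within a stretch of 21.9 kb were chosen, a stretch singled out after its values were seen. One of them, at chr8:23444901-23446100, abuts the widest peak. At chr8:23465401-23466800, downstream of the gene, the scores were 14.2 and 12.6 against 2.45 and 3.38, a ratio of 3.30, and at chr8:23455901-23458400 they were 59.1 and 60.9 against 23.8 and 9.21. In the last of these the 2 Old samples differed more from each other than the Young samples did, and it was the one of the 4 no longer taken with division within GC classes. Of all 24 eligible peaks nearest to Sfrp1, these 4 were the ones taken.

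Some chosen peaks came in groups along the chromosome, and 1411 stood alone. Of the 1807, 396 (21.9%) had another chosen peak within 50 kb, against 7.96% of all eligible peaks, and they formed 172 runs of 2 or more. There were 136 runs of 2 peaks, 28 of 3, 3 of 4, 2 of 5 and 3 of 6. Peaks that abut were counted separately, so some runs and counts per gene include adjoining pieces of a single stretch. Such pairs lie near Slc4a3, Chl1, Sfrp1, Trps1 and Gdf6, and their number over all chosen peaks was not counted. The other eligible peaks within 50 kb of a chosen peak, 6640 in number, had a median log2 ratio of the Old to the Young mean of -0.16, against -0.03 for the 79984 eligible peaks farther away. Of the 6640, 67.4% were lower in the Old samples, against 53.1% of those farther away, and the GC content differed too, with medians of 44.8% and 46.5%. The difference lay mainly in Old 2: the median divided values near chosen peaks were 1.33 in Young 1, 1.40 in Young 2, 1.32 in Old 1 and 1.21 in Old 2, against 1.5, 1.53, 1.5 and 1.56 farther away. Old 1 was thus close to Young 1 in both sets. The part of GC content and of the library Old 2 in the difference was not tested.

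The gene nearest to most chosen peaks was Slc4a3, which encodes an anion exchanger, with 12 of its 22 eligible peaks. These 12 do not lie in the gene. They are spread over 492 kb of the 1805 kb without protein-coding genes between Slc4a3 and Epha4, a receptor for ephrins that guides axons and acts in limb development. The peaks at the gene itself were not chosen, and its promoter had scores of 90.2 and 97.9 in the Young samples and 80.4 and 103 in the Old samples. The strongest of the 12, at chr1:75925301-75927000, had scores of 121 and 119 against 49.6 and 44.5. A peak at chr1:76024601-76026900 had 103 and 106 against 39.5 and 33.2, and one at chr1:75832601-75834000 had 46.7 and 62.9 against 17.1 and 13.5. These were among the stronger chosen peaks. The rule itself requires a gap between the groups, so the gap in these peaks is no support for them, though it was wider than the differences within groups. Farther into this stretch, chr1:76113201-76185300 held 5 eligible peaks and all 5 were chosen. Among them chr1:76142701-76143700 had the largest ratio, 4.29, with scores of 23.0 and 31.96 against 4.20 and 3.69. It abuts another of the 5, at chr1:76143701-76144000, so these are adjoining pieces counted separately. Beyond this run, the peak at chr1:76413701-76414700 had overlapping groups, with 19.1 and 34.0 against 20.6 and 15.97. With division within GC classes all but 1 of the 12 were still taken, the exception being in the run of 5.

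Chl1, which encodes a neural cell adhesion molecule related to L1, was nearest to 8 chosen peaks of 23 eligible. A run of 6 lay in its introns, over 94.2 kb at chr6:103567601-103661800, among 8 eligible peaks. Of these, the chosen peaks at chr6:103613601-103613900 and chr6:103613901-103615100 abut. At chr6:103613901-103615100 the scores were 26.2 and 29.6 in the Young samples and 4.55 and 5.22 in the Old samples, a ratio of 4.51. At chr6:103567601-103568300 they were 40.3 and 52.0 against 10.8 and 7.37. Other peaks of the same gene were not chosen: the Chl1 promoter had 8.49 and 8.84 against 5.24 and 3.69, and a peak over an exon at chr6:103648801-103649500 had 120 and 153 against 157 and 107.5. The other 2 chosen peaks lay upstream of the gene, with 38.6 and 42.5 against 16.1 and 12.6 at chr6:103373801-103375700, and 13.8 and 20.4 against 3.496 and 6.45 at chr6:103428201-103428700. The first of these 2 was the one of the 8 no longer taken with division within GC classes. Chosen peaks were thus interleaved with peaks that were not chosen.

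After Slc4a3 and Chl1, 5 genes were tied with 7 chosen peaks each, and Galc and Tenm3 are described first because their peaks had the largest ratios. Galc, which encodes a lysosomal galactosylceramidase, was nearest to 7 of 24. Of these, 6 formed a run at chr12:98005201-98107100 among 11 eligible peaks, in the 2417 kb between Flrt2 and Galc. The strongest, at chr12:98009001-98011700, had scores of 94.5 and 107 against 33.9 and 25.2. The largest ratio of the run, 4.80, belonged to chr12:98070801-98071300, with 10.97 and 16.3 against 1.40 and 2.15. Tenm3, which encodes a teneurin, a large membrane protein of cell adhesion, was nearest to 7 of 27, and 6 of them lay in its introns. The strongest of these, at chr8:48658701-48660500, had 71.1 and 70.04 against 23.4 and 24.6, with both groups tight. All 7 peaks of each gene were still taken with division within GC classes. The other tied genes were Map3k7, which encodes the kinase TAK1 of TGF-beta and cytokine signalling, with 7 of 42 and a largest ratio of 3.55, Tshz2 with 7 of 34 and Ice1 with 7 of 32. A further run, of 6 among 7 eligible peaks, lay at chr13:70365601-70454900 between Med10 and Ice1, and 5 of 8 lay in Tshz2, a zinc finger transcription factor gene, at chr2:169740801-169837800. Altogether the 1807 peaks had 1314 nearest genes, of which 1021 were nearest to a single chosen peak.

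The 45 promoter peaks belonged to 44 genes, and 25 of them covered the start site. At Gsc, a homeobox gene of the embryonic organizer, chr12:104473901-104475400 lies 571 bp upstream of the start and had scores of 24.8 and 25.2 in the Young samples and 4.90 and 6.76 in the Old samples, a ratio of 3.30. This peak covers an annotated start of the noncoding gene Gm10000, and not that of Gsc. At Olfr969 the scores were 13.4 and 13.3 against 2.80 and 0.921, at Igsf5, a gene of tight junctions, 8.14 and 8.50 against 1.40 and 2.46, and at Kcnn2, a calcium-activated potassium channel gene, 19.5 and 12.9 against 2.45 and 3.69. All of these were low peaks. The peaks near the starts of Gm8909, Trappc13, March7, Lrriq1, Cdh10, Pcdhga5, Resf1 and Olfr282 complete the 12 promoters with the largest ratio, which ran from 2.24 at Olfr282 to 3.5 at Olfr969. At Resf1 the Young samples themselves differed, with 13.4 in Young 1 and 6.46 in Young 2. The strongest chosen promoter peak, singled out after its values were seen, was at Trafd1, with 161 and 150 against 60.1 and 76.5, and the imprinted zinc finger gene Zim1, singled out likewise, had 95.9 and 83.6 against 27.6 and 30.1.

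Gene lists were compared by nearest gene, as the share of each list's eligible peaks that were chosen, beside 2.04% for all eligible peaks. Among cell type lists, the share was 1.702% for MSC surface markers (4 of 235), 0.943% for osteoblast genes (2 of 212), 2.37% for chondrocyte genes (6 of 253) and 1.88% for adipocyte genes (4 of 213). The turned-round rule took 2, 2, 13 and 2 peaks near the same lists, or 0.926%, 1.02%, 5.18% and 1.04% of those it could take there, beside 1.32% of all the peaks it could take. The median log2 ratio of the Old to the Young mean was 0.04 over eligible peaks of the chondrocyte list, against -0.05 over all eligible peaks. The bone-forming, cartilage and fat programs were thus each represented by a few peaks. Near Trps1, a transcription factor gene of cartilage, 3 peaks were chosen, and at chr15:50972101-50972700 the scores were 9.55 and 10.9 in the Young samples and 1.05 and 2.15 in the Old samples. In an intron of Pparg, the master regulator of fat cells, chr6:115452401-115453100 had 9.91 and 10.9 against 2.45 and 2.15. An intron of Ebf2, a factor of brown fat and of bone marrow stroma, had 17.0 and 22.1 against 6.29 and 5.84. The peak 509 bp upstream of Postn, which encodes the matrix protein periostin, had 8.85 and 14.3 against 3.15 and 2.15. Near Kitl, the stem cell factor gene, 2 peaks were chosen, and the stronger ratio was at chr10:99920001-99921000, with 18.4 and 17.3 against 4.90 and 6.76. These were small peaks, and no list of bone lineages held more than 6.

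Lists of cells that a sort could carry along were looked at in the same way. The haematopoietic list had 1 of 106 (0.943%), the skeletal muscle list 1 of 87 (1.15%) and the endothelial list 6 of 129 (4.65%). The turned-round rule took 2 of 102 (1.96%), 2 of 83 (2.41%) and 1 of 113 (0.885%) near these lists, beside 1.32% of all peaks it could take. Of the 6 endothelial peaks lower in old cells, 4 had Cdh5, the VE-cadherin gene, as nearest gene, but at distances of over 400 kb. The others lay near Fli1 and Erg. The endothelial markers were also read at their own promoters, where 9 of 15 genes had peaks. Their summed divided value was 50.8 in Young 1, 48.4 in Young 2, 47.9 in Old 1 and 46.3 in Old 2, with Sox18 the highest gene, and the defining genes Cdh5, Tie1, Emcn, Vwf, Robo4 and Sox17 had no promoter peak. The haematopoietic promoters, with 12 of 22 genes and Runx1 the highest, summed to 44.8, 41.9, 41.1 and 52.9. By divided values, both Old samples lay below both Young samples at 3 of the 9 endothelial promoters, above them at 3, and overlapped them at 3. Of the 12 haematopoietic promoters, 2 lay below, 4 above and 6 overlapped. The 2 genes given here were picked after their values were seen, as the lowest in the Old samples relative to the Young. Tek, an endothelial receptor gene, had scores of 53.4 and 49.3 in the Young samples and 22.0 and 28.3 in the Old samples, and Cd74, the invariant chain gene of antigen-presenting cells, had 107 and 109 against 53.8 and 64.8. Others had the opposite order, such as Pecam1, another endothelial gene, with 6.72 and 8.84 against 9.09 and 11.98, and Mpo, the myeloperoxidase gene, with 61.2 and 58.8 against 65.4 and 107.5. The part of such cells in the result was not tested.

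Among pathway lists, extracellular matrix genes had 18 of 690 (2.61%), from 11 genes. Near Adamts5, which encodes an aggrecan-cleaving protease, 4 peaks were chosen, and at chr16:85983401-85984400 the scores were 19.8 and 20.1 in the Young samples and 4.20 and 5.53 in the Old samples. Within Col3a1, a fibrillar collagen gene, chr1:45322201-45322700 had 7.78 and 8.50 against 2.10 and 1.23, and upstream of Col15a1 a peak had 8.14 and 8.16 against 1.75 and 2.76. Chosen peaks nearest to Eln, the elastin gene, and Lama4, a laminin gene, had 15.6 and 13.9 against 3.85 and 5.53, and 6.37 and 12.2 against 2.45 and 1.54. At Lama4 the 2 Young samples differed by more than the gap between the groups. The interval of its ratio, for counting error only, was wide, from 0.811 to 5.77. The peak was chosen by this ratio, so the interval does not test it.

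Signalling genes were near 1.92% for BMP and TGF-beta (14 of 731), 1.63% for Wnt (10 of 615) and 1.59% for FGF, IGF, Notch and Hedgehog (9 of 567). The first of these lists included ligands. Near Inhba, which encodes a subunit of activin, chr13:16392301-16393000 had scores of 8.14 and 12.6 in the Young samples and 0.699 and 1.54 in the Old samples, a ratio of 4.98. Downstream of Gdf6, a BMP ligand gene of joint formation, 4 peaks were chosen, among them chr4:10041201-10042200 with 27.6 and 23.5 against 8.39 and 4.30. An intron of Ltbp1, whose product holds latent TGF-beta in the matrix, had 13.4 and 11.2 against 1.75 and 3.69. In the Wnt list, besides the secreted inhibitor Sfrp1, the receptor gene Fzd10 had a peak with 12.03 and 10.9 against 3.15 and 3.99. Of the growth factor binding proteins, a peak upstream of Igfbp7, at chr5:77516501-77519200, was among the strongest with a ratio over 2: its scores were 141 and 154 against 46.2 and 46.4, a ratio of 2.39 with an interval of 1.96 to 2.94. Its strength was singled out after its values were seen. A peak upstream of Igfbp3 had 7.08 and 12.2 against 0.699 and 2.15. Both of these genes encode secreted proteins of the insulin-like growth factor binding family.

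Inflammatory genes had 4 of 182 (2.20%), and cell cycle inhibitors and senescence genes 3 of 161 (1.86%). Upstream of Il6, a cytokine gene on both lists, chr5:29988801-29989600 had scores of 20.9 and 20.7 in the Young samples and 6.64 and 7.06 in the Old samples, and near the chemokine gene Ccl8 a peak had 12.7 and 13.6 against 2.80 and 2.76. A peak over an exon of Cpm counted to the senescence list because the nearest start of a protein-coding transcript, 29658 bp away, was that of Mdm2, a regulator of p53, although a noncoding transcript of Cpm starts 3708 bp away. Its scores were 21.9 and 25.2 against 6.64 and 4.61. The hypoxia list had 2 of 193 (1.04%), near Egln3 and Pdk1. None of 163 peaks near AP-1 genes and none of 73 near genes of citrate and acetyl-CoA supply was chosen.

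A set of 23 short sequence motifs was searched on both strands in the central 500 bp of peaks at least that wide, 1665 chosen and 88241 eligible. The RUNX motif TGTGGT was present in 48.0% of the chosen peaks and 37.2% of eligible ones, and in 33.9% of the peaks higher in old cells. The C/EBP motif TTGCNNAA was present in 35.6%, 23.3% and 21.8%. The TEAD motif GGAATG was present in 37.6%, 30.7% and 30.6%, and the SOX motif ACAATGG in 10.0%, 6.62% and 5.64%. In these windows 11 of the 23 motifs, these 4 among them, were more common in the peaks lower in old cells than in either of the other sets. Eligible peaks held a larger share of promoters and had a higher GC content, so the shares are read again below. The homeobox motif TAATTA was in 17.0%, 11.2% and 8.51%, the glucocorticoid receptor motif ACANNNTGT in 19.8%, 15.7% and 15.1%, and the E-box CATNTG in 76.2%, 70.3% and 72.9%. The differences were smaller in percentage points for the rarer motifs of MEF2, with 2.04%, 1.32% and 0.833%, of TCF/LEF, with 7.69%, 6.95% and 7.31%, of PU.1, with 3.78%, 3.54% and 3.24%, and of NF-kB, with 2.40%, 2.30% and 2.04%. Over whole peaks none of the 23 was most common in the chosen peaks, and the order against eligible peaks, which are wider, was reversed: RUNX was in 60.9% of chosen and 73.7% of eligible peaks, C/EBP in 47.0% and 55.5%, TEAD in 51.4% and 65.4%, and SOX in 16.2% and 22.4%. The AP-1 motif TGANTCA had another order, with 31.4% of chosen, 27.9% of eligible and 41.7% of the peaks higher in old cells. Motifs of promoters and insulators were less common in chosen than in eligible peaks: the GC box GGGCGG was in 6.31% against 15.6%, the ETS motif CCGGAAG in 1.26% against 4.01%, and the CTCF core CNAGNGGGC in 3.24% against 6.65%. In the peaks higher in old cells they were also less common than in eligible peaks, with 7.49%, 2.31% and 5.37%. Such matches describe the sequence and do not show that a factor was bound.

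Motif content depends on base composition, so the shares were also read within classes of GC content. From 40 to 45% GC, RUNX was in 51.2% of 683 chosen peaks and 40.9% of 26157 eligible ones, and C/EBP in 37.0% and 27.9%. From 45 to 50%, RUNX was in 47.4% and 38.2%, and C/EBP in 29.7% and 22.6%. From 35 to 40%, the RUNX shares were 46.6% and 41.9% and the C/EBP shares 38.0% and 33.5%. The homeobox shares were equal from 40 to 45%, at 14.9% and 14.9%, and differed in the other classes, with 23.4% and 20.7% from 35 to 40%, 12.3% and 9.90% from 45 to 50%, and 8.33% and 5.07% from 50 to 55%. AP-1 changed its order: it was in 36.6% and 40.5% from 35 to 40%, in 27.7% and 33.7% from 40 to 45%, in 33.1% and 27.2% from 45 to 50%, and in 21.4% and 19.5% from 50 to 55%. The GC box was in 4.25% and 4.81% from 40 to 45%, and the CTCF core in 6.29% and 6.31% from 45 to 50%, differences much smaller than those over all peaks. From 45 to 50% the GC box was in 9.71% and 13.2%, and from 40 to 45% the CTCF core was in 2.05% and 4.13%. Outside promoters, the rule took 2.69% of peaks with a RUNX motif and 1.90% of those without, and 3.20% of peaks with a C/EBP motif and 1.89% of those without. Among the 1405 such wide peaks chosen with division within GC classes, RUNX was in 47.1% and C/EBP in 34.5%.

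The sequences of the 6 chosen peaks with the largest ratio, and of 2 chosen promoter peaks, are given below to show what such elements look like. Each is the central 300 bp, or the whole peak of 200 bp near Atp6v1b2, from the RefSeq copy of the GRCm38.p6 assembly (mm10 coordinates), plus strand, 5′ to 3′. Capitals mark matches to TGANTCA (AP-1), GGAATG (TEAD), TGTGGT (RUNX) or TTGCNNAA (C/EBP) on either strand.
upstream of D16Ertd472e, chr16:78650251-78650550: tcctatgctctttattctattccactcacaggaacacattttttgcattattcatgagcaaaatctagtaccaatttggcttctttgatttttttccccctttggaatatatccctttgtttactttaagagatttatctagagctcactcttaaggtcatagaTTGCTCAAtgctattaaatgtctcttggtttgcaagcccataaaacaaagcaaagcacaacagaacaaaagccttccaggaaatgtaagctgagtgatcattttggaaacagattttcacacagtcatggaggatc
between Lrriq3 and Negr1, chr3:155545901-155546200: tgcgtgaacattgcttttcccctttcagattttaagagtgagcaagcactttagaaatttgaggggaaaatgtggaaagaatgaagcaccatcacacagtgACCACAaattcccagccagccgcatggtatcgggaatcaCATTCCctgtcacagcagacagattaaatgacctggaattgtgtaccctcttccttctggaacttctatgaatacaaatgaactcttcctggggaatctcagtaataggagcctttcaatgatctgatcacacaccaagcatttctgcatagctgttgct
near Atp6v1b2, chr8:69001201-69001400: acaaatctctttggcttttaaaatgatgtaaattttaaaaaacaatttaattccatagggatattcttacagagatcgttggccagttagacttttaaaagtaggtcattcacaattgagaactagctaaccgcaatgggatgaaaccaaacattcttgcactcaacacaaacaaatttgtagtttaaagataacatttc
between Spef2 and Prlr, chr15:9879951-9880250: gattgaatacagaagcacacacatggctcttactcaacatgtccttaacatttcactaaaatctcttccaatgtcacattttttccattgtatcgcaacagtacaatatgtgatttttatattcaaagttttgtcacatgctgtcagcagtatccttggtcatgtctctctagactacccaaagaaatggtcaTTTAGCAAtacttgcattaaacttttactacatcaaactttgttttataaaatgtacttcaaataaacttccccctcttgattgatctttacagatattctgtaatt
upstream of Cttnbp2, chr6:18601901-18602200: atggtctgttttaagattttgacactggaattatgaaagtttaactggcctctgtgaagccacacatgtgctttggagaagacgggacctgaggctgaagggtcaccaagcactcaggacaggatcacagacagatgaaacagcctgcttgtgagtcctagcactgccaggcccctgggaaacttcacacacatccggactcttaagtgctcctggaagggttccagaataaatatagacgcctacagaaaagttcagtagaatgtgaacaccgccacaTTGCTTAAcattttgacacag
intron of Pax8, chr2:24442201-24442500: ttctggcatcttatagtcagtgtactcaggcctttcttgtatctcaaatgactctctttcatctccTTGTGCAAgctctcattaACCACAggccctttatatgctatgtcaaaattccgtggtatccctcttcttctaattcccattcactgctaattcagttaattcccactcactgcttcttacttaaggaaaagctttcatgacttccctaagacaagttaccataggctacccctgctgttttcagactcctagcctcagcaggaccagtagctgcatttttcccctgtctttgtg
upstream of Gsc, chr12:104474501-104474800: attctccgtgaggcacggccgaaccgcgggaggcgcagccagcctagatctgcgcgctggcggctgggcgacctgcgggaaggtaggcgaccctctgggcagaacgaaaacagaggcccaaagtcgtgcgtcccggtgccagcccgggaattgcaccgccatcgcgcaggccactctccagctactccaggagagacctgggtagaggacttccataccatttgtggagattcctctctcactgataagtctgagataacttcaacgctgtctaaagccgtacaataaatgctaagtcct
start of Igsf5, chr16:96395951-96396250: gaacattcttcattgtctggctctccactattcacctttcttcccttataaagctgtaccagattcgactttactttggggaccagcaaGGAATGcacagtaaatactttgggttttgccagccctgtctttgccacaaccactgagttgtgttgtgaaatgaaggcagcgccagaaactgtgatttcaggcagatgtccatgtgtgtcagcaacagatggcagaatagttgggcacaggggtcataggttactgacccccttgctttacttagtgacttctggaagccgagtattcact

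The window near D16Ertd472e held 1 C/EBP match, as did those near Spef2 and Cttnbp2. The window at Lrriq3 held 1 RUNX and 1 TEAD match, and the window in Pax8 held 1 RUNX and 1 C/EBP match. At Igsf5 there was 1 TEAD match, and near Atp6v1b2 and Gsc there was none of the 4. The AT-rich windows of most of the intergenic peaks contrast with the CpG-rich window at Gsc, whose peak had a GC content of 53.7%, against 33.2% for the peak near D16Ertd472e. This contrast does not hold for every chosen promoter peak: the one at Olfr969, whose sequence is not given here, had a GC content of 32.2%.

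The number of peaks depends on the rule having all 4 samples. With Old 1 left out it was 6457, with Old 2 left out 3415, with Young 1 left out 4176 and with Young 2 left out 2861, more in each case than with all 4. Leaving out an Old sample kept the same 88431 eligible peaks and all of the 1807. Leaving out a Young sample also changed the mean to which the minimum applies, with 89585 and 87066 eligible peaks, and kept 1771 and 1672 of the 1807. Without any division of the values the count was 4519, since the autosomal median was 13.3 in Old 1 and 15.97 in Old 2 against 17.0 in Young 1 and 18.0 in Young 2.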

How the data were processed

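ATAC-seq reads of the 4 libraries had been aligned by the authors to mm10 with Bowtie2 and duplicates removed with Picard. The deposited table gives peaks with a score per sample. The authors name this score RPKM, but its fixed step at narrow and wide peaks shows no division by width, and its scaling is not stated. The paper, for its cells under low and high oxygen, took peaks and peak values from chromstaR (bins of 300 bp, steps of 100 bp). No column was left out (0). The members and the gene and motif lists were chosen with earlier results of these data known. Peaks were annotated with GENCODE M21, and sequence, GC content and repeats were read from GRCm38.p6, using Python 3.11.15 (scipy 1.17.1, pandas 2.3.3, numpy 2.4.6). A promoter peak lies within 1 kb of a protein-coding start (of a coding transcript), and the nearest gene is the one with the nearest such start. Peaks were named by rule: the 6 largest ratios (Old values floored at 3 steps), the 4 highest Young means, 12 promoters, the 4 genes with most chosen peaks (ties by largest ratio), 30 in gene lists, 3 on each side of the threshold and the widest. Exact (Clopper-Pearson) 95% intervals cover counting error only. The same values chose the peaks, so these intervals do not test them. Code was tested on simulated data. Alternatives changed the scaling, fold, minimum, samples, promoter definition and motif window.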

Additional observations from a re-analysis of the deposited data

How the results depend on the processing

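No paired analysis was possible because nothing in the labels ties a Young to an Old sample of the same number, and no test was fitted. Of 82 recomputed values, 41 stayed within 1.5 times (counts) or within the 95% binomial interval of the reported value, and 41 moved. The count of 1807 became 4519 with values as deposited, 3252 and 881 at folds of 1.5 and 2, 2733 and 899 at Young means of at least 4 and 16, 5177 with means against means, and 2861 to 6457 with 1 sample left out. It was 1216 with a mean of all 4 samples of at least 8, 1649 with RLE factors (median ratios to the geometric mean) and 1499 with equal totals. Promoter shares were 3.63% with values as deposited, 3.57% with division within GC classes and 4.10% within 2.5 kb, all below the eligible share. The median distance was 59376 bp with values as deposited, 61442 bp and 85457 bp at folds of 1.5 and 2, 62178 bp with division within GC classes, 50128 to 68388 bp with 1 sample left out, and 19290 bp (8116 bp for eligible peaks) to any annotated start. The median width was 900 bp with values as deposited and at a fold of 1.5, 700 bp at 2, 600 and 1000 bp at Young means of at least 4 and 16, and 800 to 900 bp with 1 sample left out. The median GC content was 42.7% with values as deposited, at a fold of 1.5 and at a Young mean of at least 16, 41.4% at a fold of 2, 43.4% with division within GC classes and 41.7 to 43.2% with 1 sample left out. RUNX was in 34.2% (25.4% of eligible) of central 300 bp windows and C/EBP in 25.01% (15.2%). In whole peaks the order reversed, with RUNX in 60.9% (73.7%) and C/EBP in 47.0% (55.5%). Eligible peaks were wider, and the part of width in this reversal was not tested. With the minimum on all 4 samples the median width was 900 bp and the median GC content 42.5%. That minimum, division within GC classes and the restriction to peaks of at least 500 bp (1665) were chosen after seeing the data. With 2 samples a group, of unknown relation to animals, the spread between animals is unknown, and peaks of few counts have wide ratios.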

Other observations

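The X chromosome, which the rule leaves out, held 2521 peaks. Divided by the same autosomal medians, 81 of its 1941 peaks with a Young mean of at least 8 met the fold (4.17%), and 10 of 1599 met the turned-round rule (0.625%). The median divided value of the 1941 was 1.21 in Young 1, 1.30 in Young 2, 1.16 in Old 1 and 1.08 in Old 2, and their median GC content was 44.0%, against 40.8% for the 81. Mid1, which encodes a microtubule-associated ubiquitin ligase, was nearest to 8 of the 81, of 37 eligible. The peak at chrX:169914601-169918400, in an intron of Mid1, had scores of 25.5 and 28.2 in the Young samples and 5.94 and 8.60 in the Old samples. The promoter of Tmsb15b2, a thymosin gene, had 17.0 and 11.9 against 3.15 and 2.15, and that of Gm7173 had 28.7 and 28.9 against 6.29 and 10.1. These X-linked peaks were picked after their values were seen. The labels give no sex; the paper's mice of 3 to 5 months were male, and the old mice are not described. The part of sex in these values was not tested.

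Starts of other annotated transcripts were also looked at. Of 6623 eligible peaks within 1 kb of such a start and of no protein-coding start, 95 were lower in old cells by the rule (1.43%), and 91 of 6405 were higher (1.42%). Where that start belonged to a gene that does not code for protein, the shares were 1.69% (71 of 4201) and 1.33% (54 of 4047). Peaks at least 50% covered by soft-masked repeats were chosen in 49 of 1302 cases (3.76%), against 2.02% of the others. The turned-round rule took 3.16% of such peaks and 1.29% of the others.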
